A study of Homo sapiens with 36 samples.

Results

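Expression of 8 genes of the ETS family of transcription factors was followed in LoVo, a human colorectal cancer cell line, after treatment with a MEK inhibitor. The genes are ETV4, ETV5, ETS1, ETS2, ELF3, EHF, ELK1 and ELK4, taken by name from the 20802 genes of the count table, and all 8 have a row there. MEK phosphorylates ERK, the last kinase of the MAPK cascade. Cells were kept in medium with 10% serum and received the inhibitor at 0.03, 0.1, 0.3, 1, 3, 10, 30, 100, 300 or 1000 nM, or its solvent DMSO, for 24 hours. There were 3 libraries at every dose and 6 of DMSO, and the DMSO libraries were split evenly over 2 chips named in their labels. All groups are the same line, with no genetic change between them, and RNA was read as amplicons made with gene-specific primers. The question the design poses is at which doses the inhibitor shifts expression away from the DMSO level.

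ETS factors share a DNA-binding domain that recognises a GGAA core, and several are phosphorylated by ERK or are themselves switched on by it. ETV4 and ETV5 belong to the PEA3 group, whose transcription is known to follow ERK activity. ETS1 and ETS2 carry a docking domain through which ERK phosphorylates them. ELF3 and EHF are epithelium-specific members with a role in differentiation of gut and other epithelia. ELK1 and ELK4 are ternary complex factors, which bind DNA beside the serum response factor SRF and are activated by ERK phosphorylation rather than by a change in their own level.

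Total counts per library lay between 2972186 and 4751839. Levels below are in CPM, the count relative to the library's size after TMM scaling. Mean ± SD in DMSO is over 3 means of same-numbered libraries of both chips. An amplicon's yield differs between genes, so levels of different genes are not compared. A gene was called at a dose when its adjusted p was below 0.05 in edgeR's quasi-likelihood test against both DMSO chips, with both fold changes of the same sign. In all, 12102 genes passed the filter on low counts, including 7 of the 8 ETS factors. Replicate 1 of 1 nM and replicates 1 and 3 of 1000 nM stood apart from the other 2 libraries of their dose, with an SD of the log2 difference over all genes of 0.452, 0.468 and 0.425, against 0.239 to 0.363 in all other libraries. The epithelial marker EPCAM ran from 492 to 512 CPM at 1000 nM and from 479.8 to 528 CPM in DMSO, and 8 of 8 markers of colorectal epithelium were tested, 3 of them higher and 3 lower, with a summed level of 2878 to 3094 CPM at 1000 nM and 3274 to 3507 CPM in DMSO. Of 9 fibroblast markers 3 were tested and all 3 rose, COL1A1, COL3A1 and LUM. The summed level of that list was 41.0 to 42.4 CPM at 1000 nM and 3.28 to 4.51 CPM in DMSO, with COL1A2, THY1, FAP and POSTN at 0 counts in both. The summed level of 5 immune cell markers was 13.2 to 20.5 CPM at 1000 nM and 6.81 to 12.3 CPM in DMSO. Most of it was CD68, at 15.2 CPM at 1000 nM and 8.76 CPM in DMSO (log2 fold change 0.82, SE 0.266, not called), and LST1 was detected at low levels, while PTPRC, CD3E and TYROBP were at 0 counts in both. In bulk RNA, fewer cells of a type and less RNA per cell cannot be told apart. In the comparison of both DMSO chips, 0 of the 7 ETS factors were called, as were 0% of all genes, with chip differences on the log2 scale from -0.29 for ELK1 to 0.08 for ETV4.

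ETV4 and ETV5, the PEA3 group factors, fell the most of the 8 genes and by similar amounts. ETV4 averaged 4.45 ± 0.559 CPM at 1000 nM (SD, n = 3) and 64.6 ± 4.99 CPM in DMSO (SD, n = 3 pairs), 14.5-fold lower. ETV5 averaged 4.12 ± 1.06 CPM at 1000 nM and 71.5 ± 1.49 CPM in DMSO, 17.5-fold lower. Both were called from 3 nM on. Of all 12102 fold changes at 1000 nM, that of ETV5 was number 8 and that of ETV4 number 9 from the lowest.

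The 3 libraries at 1000 nM held 4.5, 4.97 and 3.86 CPM of ETV4, while the 6 DMSO libraries had a lowest value of 54.4, a median of 65.0 and a highest of 74.3 CPM. No treated library at 3 nM or above reached the lowest DMSO library. Group means of ETV4 were 64.6 CPM in DMSO, 58.6 CPM with 0.03 nM, 57.9 CPM with 0.1 nM, 67.2 CPM with 0.3 nM and 52.4 CPM with 1 nM. They were 39.6 CPM with 3 nM, 21.3 CPM with 10 nM, 9.33 CPM with 30 nM, 4.98 CPM with 100 nM and 4.17 CPM with 300 nM. The libraries at 3 nM lay close together at 40.5, 38.9 and 39.2 CPM, and those at 10 nM at 20.1, 22.2 and 21.6 CPM. At 300 nM the libraries spread more, at 6.04, 4.67 and 1.80 CPM, where the lowest rests on 7 counts. The log2 fold change of ETV4 was -0.71 at 3 nM (SE 0.141), -1.60 at 10 nM (SE 0.157), -2.78 at 30 nM (SE 0.176) and -3.68 at 100 nM (SE 0.195). At 300 and 1000 nM it was -3.93 (SE 0.201) and -3.86 (SE 0.201), the last where edgeR's quasi-likelihood test gave an adjusted p of 1.67e-21. The ranges of 100, 300 and 1000 nM overlapped, so no order can be given among these doses.

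ETV5 held 4.78, 4.68 and 2.90 CPM in the 3 libraries at 1000 nM, and the 6 DMSO libraries had a lowest value of 64.6, a median of 71.6 and a highest of 80.4 CPM. Group means were 71.5 CPM in DMSO, 72.3 CPM with 0.03 nM, 69.1 CPM with 0.1 nM, 65.0 CPM with 0.3 nM, 56.7 CPM with 1 nM and 33.6 CPM with 3 nM. They were 17.9 CPM with 10 nM, 8.72 CPM with 30 nM, 4.96 CPM with 100 nM and 5.28 CPM with 300 nM. As for ETV4, every library from 3 nM upward was below every DMSO library. The dose of 1 nM is where ETV5 depends on 1 library. Its libraries there held 75.8, 49.3 and 45.1 CPM, and the first of these is the replicate that stands apart. With all 3 libraries the change at 1 nM was -0.35 (SE 0.169) and not called. Without replicate 1 of 1 nM it was -0.60 and called (adjusted p = 0.0383 by edgeR's quasi-likelihood test, in a range of 0.0211 to 0.755 over 21 alternatives). Its change on the log2 scale was -1.09 at 3 nM (SE 0.173), -2.01 at 10 nM (SE 0.195), -3.02 at 30 nM (SE 0.216), -3.83 at 100 nM (SE 0.236) and -3.74 at 300 nM (SE 0.233). At 1000 nM it was -4.13 (SE 0.247, adjusted p = 2.20e-17 in edgeR's quasi-likelihood test).

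**Figure D1:**
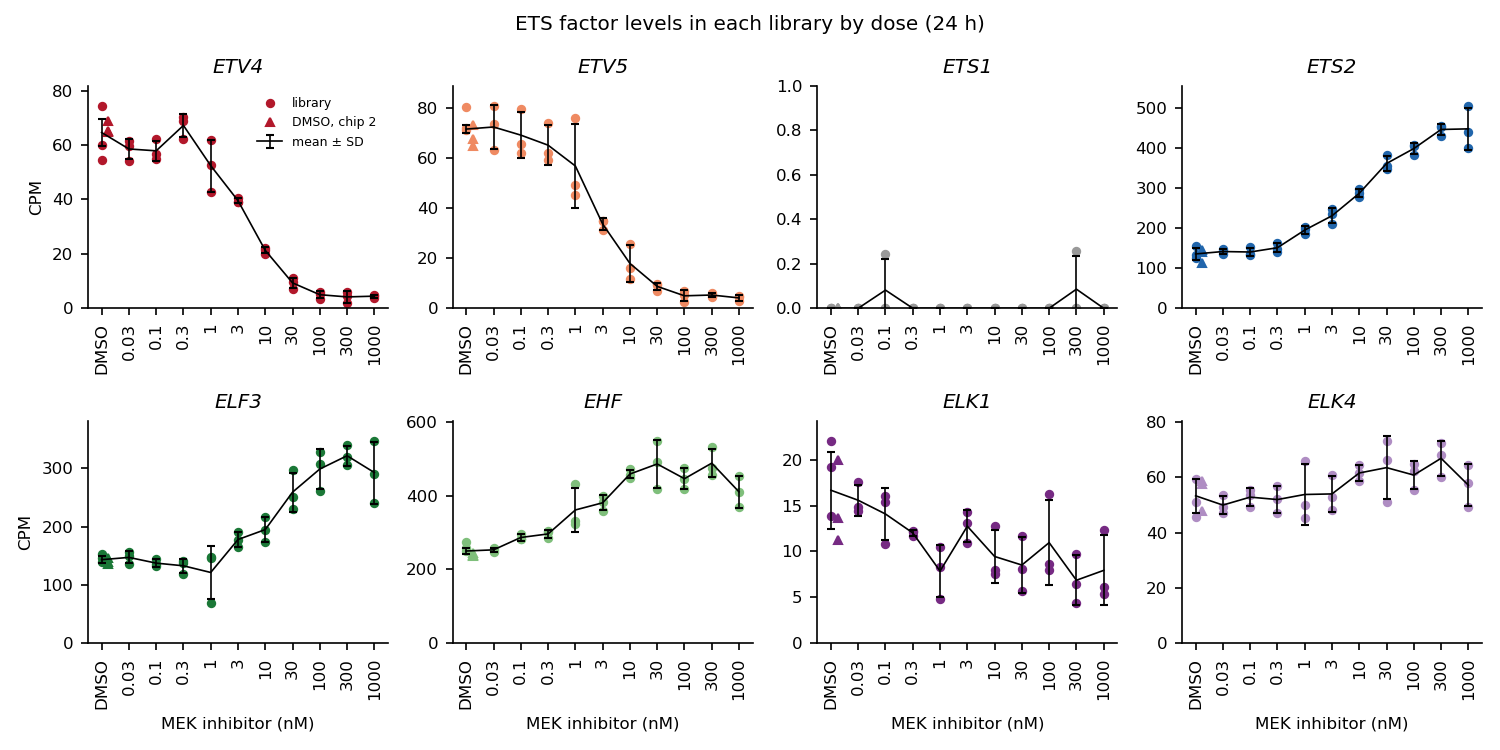
Level of each ETS factor in CPM (y axis, scale differs by gene) against the dose of MEK inhibitor in nM (x axis, evenly spaced steps), after 24 h. Points are libraries, triangles are DMSO libraries of chip 2, and the line joins means with SD (DMSO over 3 pairs, doses over 3 libraries). ETV4 and ETV5 drop to means of 4.45 and 4.12 CPM at 1000 nM, ETS2, ELF3 and EHF climb, and ETS1 stays at 0 or 1 count.

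ETS1 and ETS2 differed in whether they could be measured at all. ETS1 had 2 counts among 141578462 counts of all 36 libraries. They were 1 count in replicate 1 of 0.1 nM and 1 count in replicate 3 of 300 nM, and the other 34 libraries had 0. A count of 0 allows up to 3 counts, or 0.633 to 1.03 CPM depending on the library, so a change of ETS1 below about that level was not detectable at this depth. ETS1 did not pass the filter and was not tested.

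ETS2 rose with dose, to 449 ± 53.0 CPM at 1000 nM (SD, n = 3), against 136 ± 14.1 CPM in DMSO (SD, n = 3 pairs), 3.30-fold higher. It was called at 1 nM and at every higher dose, and it had the largest rise of the 8 genes. Its 3 libraries at 1000 nM held 505, 400.5 and 440.3 CPM, and the 6 DMSO libraries had a lowest value of 113, a median of 137 and a highest of 156 CPM. At 1 nM the libraries were already above all DMSO libraries, at 203, 199 and 185 CPM. Group means were 136 CPM in DMSO, 142 CPM with 0.03 nM, 141 CPM with 0.1 nM, 151 CPM with 0.3 nM, 196 CPM with 1 nM and 231 CPM with 3 nM. They were 288 CPM with 10 nM, 362 CPM with 30 nM, 399 CPM with 100 nM and 447 CPM with 300 nM. From 0.3 to 30 nM the ranges of neighbouring doses did not overlap, while those of 30 and 100 nM did, as did those of 300 and 1000 nM. The log2 fold change was 0.52 at 1 nM (SE 0.0997, adjusted p = 0.000544 in edgeR's quasi-likelihood test), 0.77 at 3 nM (SE 0.099), 1.08 at 10 nM (SE 0.099) and 1.41 at 30 nM (SE 0.099). It reached 1.56 at 100 nM, 1.72 at 300 nM and 1.72 at 1000 nM, the last with an SE of 0.099 and an adjusted p of 5.31e-20. Without replicate 1 of 1 nM the change at 1 nM was 0.49 and still called.

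ELF3 and EHF, the epithelium-specific factors, also rose, and were first called at different doses. ELF3 averaged 293 ± 53.2 CPM at 1000 nM (SD, n = 3) and 143 ± 5.45 CPM in DMSO (SD, n = 3 pairs), 2.04-fold higher. EHF averaged 410.5 ± 42.5 CPM at 1000 nM and 250 ± 7.01 CPM in DMSO, 1.64-fold higher. EHF was called at 1 nM and every higher dose, ELF3 at 30 nM and every higher dose. The SE of ELF3 was the larger, 0.165 at 10 nM against 0.098 for EHF. The dose of the first call is therefore not the dose at which a rise began.

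The ELF3 libraries at 1000 nM held 240.3, 347 and 291 CPM, and the 6 DMSO libraries had a lowest value of 135, a median of 143 and a highest of 153 CPM. Group means of ELF3 were 143 CPM in DMSO, 147 CPM with 0.03 nM, 137 CPM with 0.1 nM, 133 CPM with 0.3 nM, 121 CPM with 1 nM and 178 CPM with 3 nM. They were 195 CPM with 10 nM, 259 CPM with 30 nM, 299 CPM with 100 nM and 321 CPM with 300 nM. The low mean at 1 nM rests on replicate 1, with 68.3 CPM, against 148 and 147 CPM in the other libraries of that dose. The change at 1 nM was -0.22 (SE 0.167, not called) and turned to 0.04 without replicate 1. At 3 and 10 nM all libraries of ELF3 were above all DMSO libraries, at 166 to 191 and 174 to 216 CPM. The log2 fold change of 0.44 at 10 nM (SE 0.165) was not called (adjusted p = 0.0578 by edgeR's quasi-likelihood test), but was called by DESeq2 (0.0335) and in 7 of 21 alternatives, with adjusted p from 3.27e-05 to 0.225. At 3 nM it was 0.31 (SE 0.164), not called, and 2 alternatives called it. One of them leaves out 3 libraries together, 0.1 nM replicate 2, 1 nM replicate 1 and 1000 nM replicate 1 (adjusted p = 0.0231 by edgeR's quasi-likelihood test, range 0.0022 to 0.634). That fit, without the 1 nM library of 68.3 CPM, also called 10 nM (adjusted p = 0.000342 by edgeR's quasi-likelihood test). At 30, 100, 300 and 1000 nM the log2 fold change was 0.85, 1.06, 1.17 and 1.03, with an SE of 0.163 or 0.164. For 1000 nM edgeR's quasi-likelihood test gave an adjusted p of 6.67e-06.

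EHF libraries at 1000 nM held 453, 410.1 and 368 CPM, all above the 6 DMSO libraries, which had a lowest value of 235, a median of 247 and a highest of 275 CPM. Group means of EHF were 250 CPM in DMSO, 253 CPM with 0.03 nM, 287 CPM with 0.1 nM, 296 CPM with 0.3 nM, 361 CPM with 1 nM and 381 CPM with 3 nM. They were 459 CPM with 10 nM, 486 CPM with 30 nM, 446 CPM with 100 nM and 489 CPM with 300 nM. At 0.1 and 0.3 nM every EHF library lay above every DMSO library, yet the changes of 0.20 (SE 0.098) and 0.25 (SE 0.098) on the log2 scale were not called, nor was any other gene at these doses. On the log2 scale EHF changed by 0.53 at 1 nM (SE 0.098), 0.61 at 3 nM, 0.88 at 10 nM and 0.96 at 30 nM. The ranges of 10, 30, 100 and 300 nM overlapped, while every library at 1000 nM was below every library at 300 nM. The change was 0.84 at 100 nM, 0.97 at 300 nM and 0.72 at 1000 nM (SE 0.098, adjusted p = 2.06e-07 in edgeR's quasi-likelihood test). At 1 nM replicate 1 was the highest library, with 431 CPM against 322 and 331 CPM. Without it the change at 1 nM was 0.38 and still called (adjusted p = 0.0330 by edgeR's quasi-likelihood test, range 2.82e-05 to 0.0330 over 21 alternatives).

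The promoters of the 3 rising factors are shown because all 3 were called higher at 30 nM and above. Each is 250 bases before to 50 after a transcription start in RefSeq on GRCh38.p14, read on the gene's strand. Of the 8 genes, 5 had an entry, with 7 promoters in all. ETV4, ETV5 and ETS1 had none. Capitals mark the ETS core GGAA or its reverse complement TTCC. The sequences are ETS2 at chr21:38804933-38805232 and chr21:38805679-38805978, ELF3 at chr1:202010337-202010636 and EHF at chr11:34624007-34624306, all on the plus strand.
ETS2, first start: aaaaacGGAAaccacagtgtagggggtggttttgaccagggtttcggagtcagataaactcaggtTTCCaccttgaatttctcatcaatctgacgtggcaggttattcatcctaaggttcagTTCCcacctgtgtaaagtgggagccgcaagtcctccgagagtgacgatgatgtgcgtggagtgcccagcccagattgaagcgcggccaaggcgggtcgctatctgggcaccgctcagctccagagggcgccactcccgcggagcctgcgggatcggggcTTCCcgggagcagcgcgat
ETS2, second start: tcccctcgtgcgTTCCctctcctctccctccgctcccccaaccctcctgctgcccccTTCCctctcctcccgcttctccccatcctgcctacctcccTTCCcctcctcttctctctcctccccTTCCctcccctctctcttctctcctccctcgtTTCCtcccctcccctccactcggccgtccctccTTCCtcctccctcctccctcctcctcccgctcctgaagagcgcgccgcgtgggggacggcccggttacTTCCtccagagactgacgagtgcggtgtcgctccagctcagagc
ELF3: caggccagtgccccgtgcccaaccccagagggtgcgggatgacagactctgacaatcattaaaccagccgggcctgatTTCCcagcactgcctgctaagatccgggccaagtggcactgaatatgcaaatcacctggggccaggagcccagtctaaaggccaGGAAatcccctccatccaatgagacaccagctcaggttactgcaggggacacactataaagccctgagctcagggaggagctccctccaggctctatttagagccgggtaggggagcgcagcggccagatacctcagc
EHF: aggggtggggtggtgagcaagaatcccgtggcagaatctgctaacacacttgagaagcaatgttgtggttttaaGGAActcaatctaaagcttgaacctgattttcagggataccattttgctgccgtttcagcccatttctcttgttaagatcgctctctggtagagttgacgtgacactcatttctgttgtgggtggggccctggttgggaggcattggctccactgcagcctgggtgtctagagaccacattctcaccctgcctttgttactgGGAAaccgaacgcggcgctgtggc
These windows held 4 and 7 cores for the ETS2 starts, 2 for ELF3 and 2 for EHF, and a second EHF start held 0. Over both strands, 95.5% of 35116 promoters of the same length held at least 1 core, with a median of 3, so nearly all promoters hold it. The longer motif AGGAAG, searched on both strands, was in 33.6% of all promoters and occurred 2 times in the second ETS2 window and in none of the other 6. A match describes letters in the window and does not show binding.

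ELK1 and ELK4, the ternary complex factors, moved least regularly. ELK1 averaged 7.93 ± 3.81 CPM at 1000 nM (SD, n = 3) and 16.7 ± 4.22 CPM in DMSO (SD, n = 3 pairs), 2.05-fold lower, and was called at 30, 300 and 1000 nM and at no other dose. ELK4 averaged 57.2 ± 7.60 CPM at 1000 nM and 53.3 ± 6.07 CPM in DMSO and was called at no dose.

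ELK1 rests on few reads, with 91 counts in the 3 libraries at 1000 nM and 354 in the 6 DMSO libraries. Its libraries at 1000 nM held 5.35, 6.14 and 12.3 CPM, and the 6 DMSO libraries had a lowest value of 11.3, a median of 16.6 and a highest of 22.0 CPM. The groups overlap, through replicate 3 of 1000 nM. Group means were 16.7 CPM in DMSO, 15.6 CPM with 0.03 nM, 14.1 CPM with 0.1 nM, 12 CPM with 0.3 nM, 7.86 CPM with 1 nM and 12.7 CPM with 3 nM. They were 9.45 CPM with 10 nM, 8.51 CPM with 30 nM, 11 CPM with 100 nM and 6.86 CPM with 300 nM, with no neighbouring pair in the order of means apart in range. Called changes on the log2 scale were -0.95 at 30 nM (SE 0.311, adjusted p = 0.0392), -1.24 at 300 nM (SE 0.319, adjusted p = 0.00465) and -1.03 at 1000 nM (SE 0.313, adjusted p = 0.0206), all in edgeR's quasi-likelihood test. These calls depend on single libraries. At 30 nM the call was lost without replicate 1 (adjusted p = 0.0922) or 2 of 30 nM (0.187), without replicate 1 of DMSO chip 2 (0.259) and with plain library totals (0.0560), in a range of 0.00257 to 0.259 over 21 alternatives of edgeR's, DESeq2's and voom's tests. At 300 nM it was lost without replicate 1 of DMSO chip 2 (adjusted p = 0.0572 by edgeR's quasi-likelihood test, range 3.95e-05 to 0.0572). At 1000 nM it was lost without replicate 1 (adjusted p = 0.109 by edgeR's quasi-likelihood test) or 2 of 1000 nM (0.0840) without replicate 1 of DMSO chip 2 (0.169) and without the 3 libraries left out together (0.102), in a range of 0.000922 to 0.169. At 1, 10 and 100 nM the values were -1.03, -0.82 and -0.60 on the log2 scale and were not called. They passed in 7, 4 and 2 of 21 alternatives. At 100 nM leaving out replicate 1 of that dose alone gave -1.01 and a call (adjusted p = 0.0332 by edgeR's quasi-likelihood test, range 0.0282 to 0.772).

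ELK4 held 58.0, 64.4 and 49.2 CPM in the 3 libraries at 1000 nM, and its 6 DMSO libraries had a lowest value of 45.7, a median of 54.3 and a highest of 59.4 CPM. Means of the doses ran from 50 CPM at 0.03 nM to 66.9 CPM at 300 nM, with overlapping ranges between all neighbours in the order. The log2 fold change at 1000 nM was 0.09, with a 95% interval of -0.19 to 0.38, and turned to -0.0048 without replicate 2 of 1000 nM. The largest was 0.33 at 300 nM, with an interval of 0.05 to 0.61 (adjusted p = 0.0750 by edgeR's quasi-likelihood test, range 0.0188 to 0.330). It was called in 3 of 21 alternatives, which used chip 1 as the only DMSO group, summed the DMSO chips, or fitted the compared libraries only. The ELK4 promoter, chr1:205631962-205632261 on the minus strand of GRCh38.p14, is shown because among the 7 windows it alone held CCGGAAGT, an extended ETS motif found on either strand in 4.14% of the 35116 promoters. Capitals again mark GGAA and TTCC, and the third run of capitals lies in that motif.
ELK4: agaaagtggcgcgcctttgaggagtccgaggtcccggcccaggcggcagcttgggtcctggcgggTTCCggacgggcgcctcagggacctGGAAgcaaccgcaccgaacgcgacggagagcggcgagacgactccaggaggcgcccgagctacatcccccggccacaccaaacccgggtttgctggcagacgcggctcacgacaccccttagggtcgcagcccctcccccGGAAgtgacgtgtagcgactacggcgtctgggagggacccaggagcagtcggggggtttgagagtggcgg

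Read dose by dose, the number of called ETS factors was 0 of 7 at 0.03, 0.1 and 0.3 nM, where 0, 0 and 0% of all tested genes were called. At these doses 42, 299 and 330 of the 12102 genes had an unadjusted p below 0.05 in edgeR's quasi-likelihood test against both chips, with the same sign. With no change at all, a share of up to 0.05 of the genes would be expected there. DESeq2, voom and the other alternatives called 0 of the 7 as well. Counts over all genes depended on the setting at 0.3 nM, with 23 higher and 102 lower when only the compared libraries were fitted and 4 higher and 36 lower with no filter. ETS2 and EHF were the 2 called at 1 nM, against 7.97% of all genes. ETV4 and ETV5 joined at 3 nM, giving 4 of 7 against 13.3% of all genes, and the same 4 were called at 10 nM, against 26.8%. At 30 nM 6 of 7 were called against 36% of all genes, at 100 nM 5 against 37.2%, at 300 nM 6 against 45.1% and at 1000 nM 6 against 41.8%. At 1000 nM 3 were higher, against 21.2% of all genes, and 3 lower, against 20.7%. The median log2 fold change of the 7 was 0.09 at 1000 nM and that of all tested genes 0.01.

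**Figure D2:**
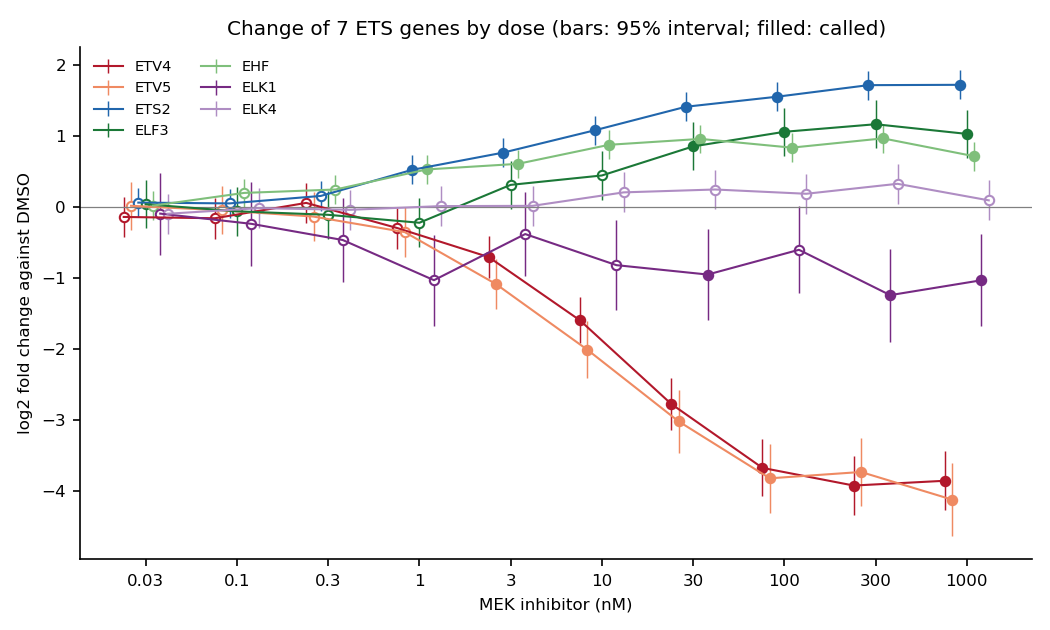
Log2 fold change against DMSO (y axis) of the 7 tested ETS factors by dose of MEK inhibitor (x axis, log scale, points shifted sideways for legibility). Bars are 95% intervals and filled points are called. ETV4 and ETV5 reach -3.86 and -4.13 at 1000 nM, ETS2 reaches 1.72, and ELK4 stays between -0.09 and 0.33.

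Comparisons between doses 10-fold apart leave the DMSO libraries out of the difference, though these stay in the fit that sets scaling and spread. Between 0.3 and 0.03 nM 0 of 7 ETS factors changed, as did 0% of all genes. Between 1 and 0.1 nM ETS2 and EHF rose, by 0.47 (SE 0.098) and 0.33 (SE 0.096), 2 of 7 against 15% of all genes, and without replicate 2 of 0.1 nM 1 was called. Between 3 and 0.3 nM 4 changed against 13.1% of all genes, with ETV4 at -0.76 (SE 0.138), ETV5 at -0.95 (SE 0.17), ETS2 at 0.61 and EHF at 0.36. Between 10 and 1 nM 5 changed against 15.4%, including ELF3 at 0.67 (SE 0.164), whose libraries at 1 nM include the low one of 68.3 CPM. Between 30 and 3 nM 5 changed against 18.2%, ETV4 by -2.07 (SE 0.18) and ETV5 by -1.94 (SE 0.224), and this number fell to 3 without replicate 2 of 3 nM or replicate 1 of 30 nM. Between 100 and 10 nM 4 changed against 5.14% of all genes. These were ETV4 at -2.08 (SE 0.222), ETV5 at -1.81 (SE 0.278), ETS2 at 0.47 (SE 0.095) and ELF3 at 0.62 (SE 0.159), while EHF was -0.04 (SE 0.095) and not called. Between 300 and 30 nM 1 changed, ETV4 at -1.15 (SE 0.262, adjusted p = 0.0223 by edgeR's quasi-likelihood test), against 0.512% of all genes. That call was lost with voom and without replicate 2 or 3 of 30 nM or replicate 2 or 3 of 300 nM. Between 1000 and 100 nM 0 of 7 changed, against 0.00826% of all genes, which is 1 gene.

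A half-maximal dose, the dose at which a saturating curve through all 36 libraries is midway, was fitted for each ETS factor with a call at 1000 nM whose fold there was 2 or more. On the log2 scale it was 3.92 nM for ETS2 (95% interval 2.91 to 5.29 nM), 9.16 nM for ETV5 (6.78 to 12.4 nM), 11.8 nM for ELF3 (5.35 to 25.9 nM) and 14.6 nM for ETV4 (10.8 to 19.6 nM). The interval of ETS2 lay below those of ETV4 and ETV5 on that scale. ELK1 was not well fitted, with an SE of 0.403 on the log10 dose, and EHF did not reach the fold. The order turned with the scale of the curve. On the CPM scale, chosen after seeing the data, the half-maximal dose was 2.26 nM for ETV5 (1.64 to 3.11 nM), 3.57 nM for ETV4 (2.59 to 4.92 nM), 6.94 nM for ETS2 (5.12 to 9.40 nM) and 18.1 nM for ELF3 (7.94 to 41.1 nM). A gene that falls by a large factor loses most of its CPM at doses where its log2 level has moved little, so both readings describe the same counts. ETV4 and ETV5 had overlapping intervals on either scale.

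**Figure D3:**
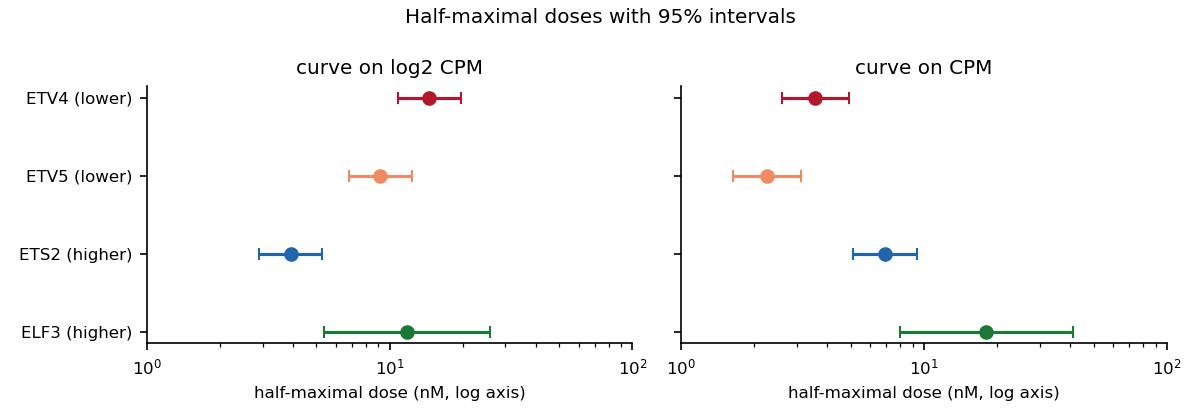
Half-maximal dose in nM (x axis, log scale) of 4 ETS factors with 95% intervals, from a curve on log2 CPM (left) and on CPM (right). ETS2 has the lowest value on the left, 3.92 nM, and lies above ETV4 and ETV5 on the right, at 6.94 nM.

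Close relatives were compared within each library as the log2 ratio of their counts, which needs no scaling between libraries. The 6 libraries of 300 and 1000 nM were set against 3 DMSO pair means in an exact two-sided permutation test with 84 arrangements. Pair means average libraries of both chips and may spread less than single libraries, and the treated libraries pool 300 and 1000 nM. The p-values are therefore approximate. The test doubles the smaller tail, so with 84 arrangements no p below 0.0238 was possible. The ratio of ETV4 to ETV5 averaged -0.16 ± 0.59 at 300 and 1000 nM and -0.15 ± 0.14 in DMSO (SD, n = 6 libraries and 3 pairs). The difference of -0.02 was within the spread (exact permutation p = 0.738), and replicate 3 of 300 nM was the lowest library at -1.32. The ratio of ELF3 to EHF averaged -0.55 ± 0.24 at 300 and 1000 nM and -0.80 ± 0.09 in DMSO, a difference of 0.25 (exact permutation p = 0.119). Without replicate 1 of 1000 nM, the lowest treated library at -0.91, that difference was 0.32 (exact permutation p = 0.0357). The ratio of ELK1 to ELK4 averaged -3.10 ± 0.63 at 300 and 1000 nM and -1.69 ± 0.35 in DMSO, a difference of -1.41 (exact permutation p = 0.0476), and was -1.35 without replicate 1 of 1000 nM (exact permutation p = 0.0714). It was -1.59 with chip 1 as the only DMSO group (exact permutation p = 0.0238) and -1.21 with 30, 100, 300 and 1000 nM as one group (exact permutation p = 0.0132). Of the 6 treated libraries 5 were below all DMSO pair means. Adjusted over the 3 pairs, the p-values at 300 and 1000 nM were 0.738, 0.179 and 0.143, and no pair passed at these doses. With no p below 0.0238 possible, 1 differing pair alone could not have passed after this adjustment. The adjusted test at 300 and 1000 nM therefore cannot decide whether a single pair differed. With 30, 100, 300 and 1000 nM as one group, more treated libraries allowed a lower p. The exact permutation p-values were then 0.611, 0.303 and 0.0132 in the same order of pairs, and these were not adjusted over the pairs.

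**Figure D4:**
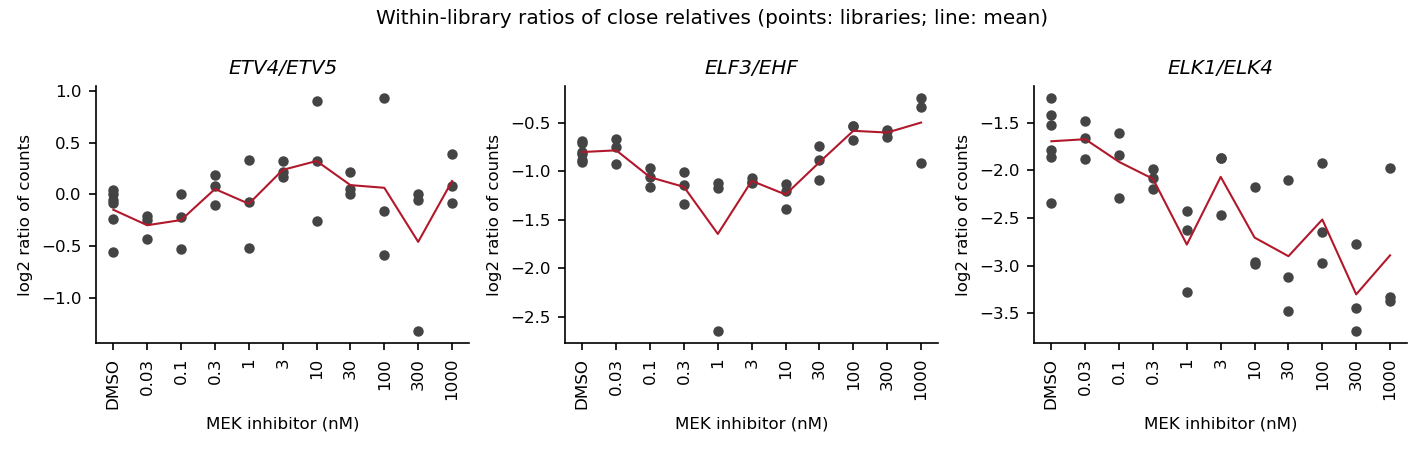
Log2 ratio of counts within a library (y axis) for ETV4 to ETV5, ELF3 to EHF and ELK1 to ELK4 by dose of MEK inhibitor in nM (x axis). Points are libraries and the line joins means. The ELK1 to ELK4 ratio averages -3.10 at 300 and 1000 nM and -1.69 in DMSO, while the ETV4 to ETV5 ratio differs by -0.02 between them.

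Across the 36 libraries, ETV4 and ETV5 had a Pearson correlation of log2 CPM of 0.97, ETS2 correlated with them at -0.95 and -0.95, ETS2 with EHF at 0.90 and with ELF3 at 0.85, ELF3 with EHF at 0.68, and ELK1 with ELK4 at -0.43. These points share the dose series and the libraries, so the values describe how alike the patterns were. Among 10807 genes of at least 5 CPM at 1000 nM or in DMSO, ETV4 was most like TCOF1, a nucleolar factor of ribosomal RNA synthesis (r = 0.98), and REG4, a secreted lectin (0.97). ETV5 was most like the mucin MUC2 (0.98) and the transcription factor MYC (0.98). ETS2 was most like BMF, a pro-apoptotic BCL2 family gene (0.99), and SLC5A3, a myo-inositol transporter (0.99). EHF was most like the phospholipase PLA2G2A (0.95) and the keratin KRT4 (0.95), and ELF3 most like NSF, an ATPase of vesicle fusion (0.94), and TBC1D1 (0.94). Likeness was lower for ELK1, led by FYTTD1 (0.87) and EMD (0.86), and for ELK4, led by ATP6V0D1 (0.77) and CAPN1 (0.76).

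Of 20 other ETS genes listed, 19 are in the files, FEV was not analysed here, and 10 passed the filter. Of these 10, 3 rose and 0 fell, with a median of 0.16, against 21.2% higher, 20.7% lower and a median of 0.01 over all genes. ELK3, the third ternary complex factor, rose by 0.73 (SE 0.141), with 54.7 to 58.6 CPM at 1000 nM and 31.3 to 38.6 CPM in DMSO. GABPA, a regulator of mitochondrial and housekeeping genes, rose by 0.53 (SE 0.131), with a call lost without replicate 1 of 1000 nM or replicate 2 of DMSO chip 2 (edgeR's quasi-likelihood test, adjusted p up to 0.201 over 21 alternatives, from 3.50e-05). ETV6, a repressor, rose by 0.40 (SE 0.106). ETV1, the remaining PEA3 group member, had 5 counts at 1000 nM and 34 in DMSO, and its value of -1.61 (SE 0.81) was not called. ERF, an ETS repressor that ERK exports from the nucleus, was at -0.32 (SE 0.123) and not called (adjusted p = 0.0566 by edgeR's quasi-likelihood test). Called genes of this list numbered 5 when chip 1 was the only DMSO group and 5 when DMSO was summed over chips.

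Of 5 regulators of the PEA3 group, 3 rose and 0 fell at 1000 nM, with a median of 0.33, against 21.2% higher, 20.7% lower and a median of 0.01 over all genes. RFWD2, also named COP1, the ubiquitin ligase that marks PEA3 factors for degradation, rose by 0.67 (SE 0.14), with 43.6 to 58.3 CPM at 1000 nM and 28.3 to 37.1 CPM in DMSO. ATXN1L, which stabilises the repressor CIC, rose by 0.40 (SE 0.125), with a call lost without replicate 1 of 1000 nM (adjusted p = 0.0865 by edgeR's quasi-likelihood test, the highest of 21 alternatives, from 0.00489). CIC, the repressor of ETV4 and ETV5, rose by 0.33 (SE 0.124), near the threshold. Of 9 fits without 1 library, its call was kept in those without replicate 1 of DMSO chip 1 and without replicate 2 of 1000 nM, and lost in the other 7 (edgeR's quasi-likelihood test, adjusted p from 0.0163 to 0.266 over 21 alternatives). DET1, a partner of the ligase, was at -0.82 (SE 0.331) and not called.

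Of 9 matrix proteases and related genes known as ETS targets 6 were tested. A rise was called for 4 and a fall for 1, and the median log2 fold change was 1.1. Over all genes 21.2% were called higher and 20.7% lower, with a median of 0.01. MMP14, a membrane-bound matrix metalloprotease, rose by 1.56 (SE 0.135), with 114 to 167 CPM at 1000 nM and 37.1 to 51.8 CPM in DMSO. PLAU, the urokinase plasminogen activator, rose by 1.27 (SE 0.309) and its receptor PLAUR by 0.92 (SE 0.174), while PTGS2, a prostaglandin synthase, was lower by -1.08 (SE 0.155). The fourth gene that rose, MMP3, was named after its values were seen. It has 31 counts at 1000 nM and 19 in DMSO, and its call was lost in 8 of 20 alternatives. Several of these genes are also made by fibroblasts, whose 9 markers had the summed levels and zeros given above, and their part in this result was not tested.

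Among partners of the ternary complex factors, 3 of 4 were tested and 2 rose, where 21.2% of all genes were called higher. SRF itself was at 0.05 (SE 0.132) and not called, with 54.7 to 63.7 CPM at 1000 nM and 50.9 to 64.9 CPM in DMSO. Its coactivators MKL1 and MKL2 rose by 1.02 (SE 0.182) and 0.49 (SE 0.126). Of 8 known targets of SRF and ELK factors 4 were tested, 0 rose and 2 fell, with a median of -0.96, beside 21.2% higher, 20.7% lower and a median of 0.01 for all genes. These were EGR1 at -4.17 (SE 0.245) and FOS at -1.53 (SE 0.391), both immediate early transcription factors, while MCL1 at 0.09 (SE 0.113) was not called.

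Of 12 epithelial transcription factors 11 were tested. At 1000 nM a rise was called for 4 and a fall for 5, and the median was -0.21. The background over all genes was 21.2% higher and 20.7% lower, with a median of 0.01. The intestinal factor CDX2 rose by 1.04 (SE 0.095), with 265 to 302 CPM at 1000 nM and 128 to 151 CPM in DMSO, a change near that of ELF3. HNF4A, a factor of liver and gut, was lower, at -0.65 (SE 0.117), as were FOXA2 at -1.85 (SE 0.317) and KLF5, a factor of proliferating crypt cells, at -0.39 (SE 0.0785). CDX2 is also in the list of colorectal epithelium markers. ELF3 and EHF rose as CDX2 did, while others of the list fell. The remaining called genes of the list, named after their values were seen, went both ways. CDX1 rose by 2.29, on 35 counts at 1000 nM and 13 in DMSO, GRHL1 by 0.71 and FOXA1 by 0.58. KLF4 was lower, at -0.71, as was GRHL2 at -0.38. The calls of FOXA1, GRHL1 and GRHL2 were lost in 1, 4 and 8 of 21 alternatives.

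**Figure D5:**
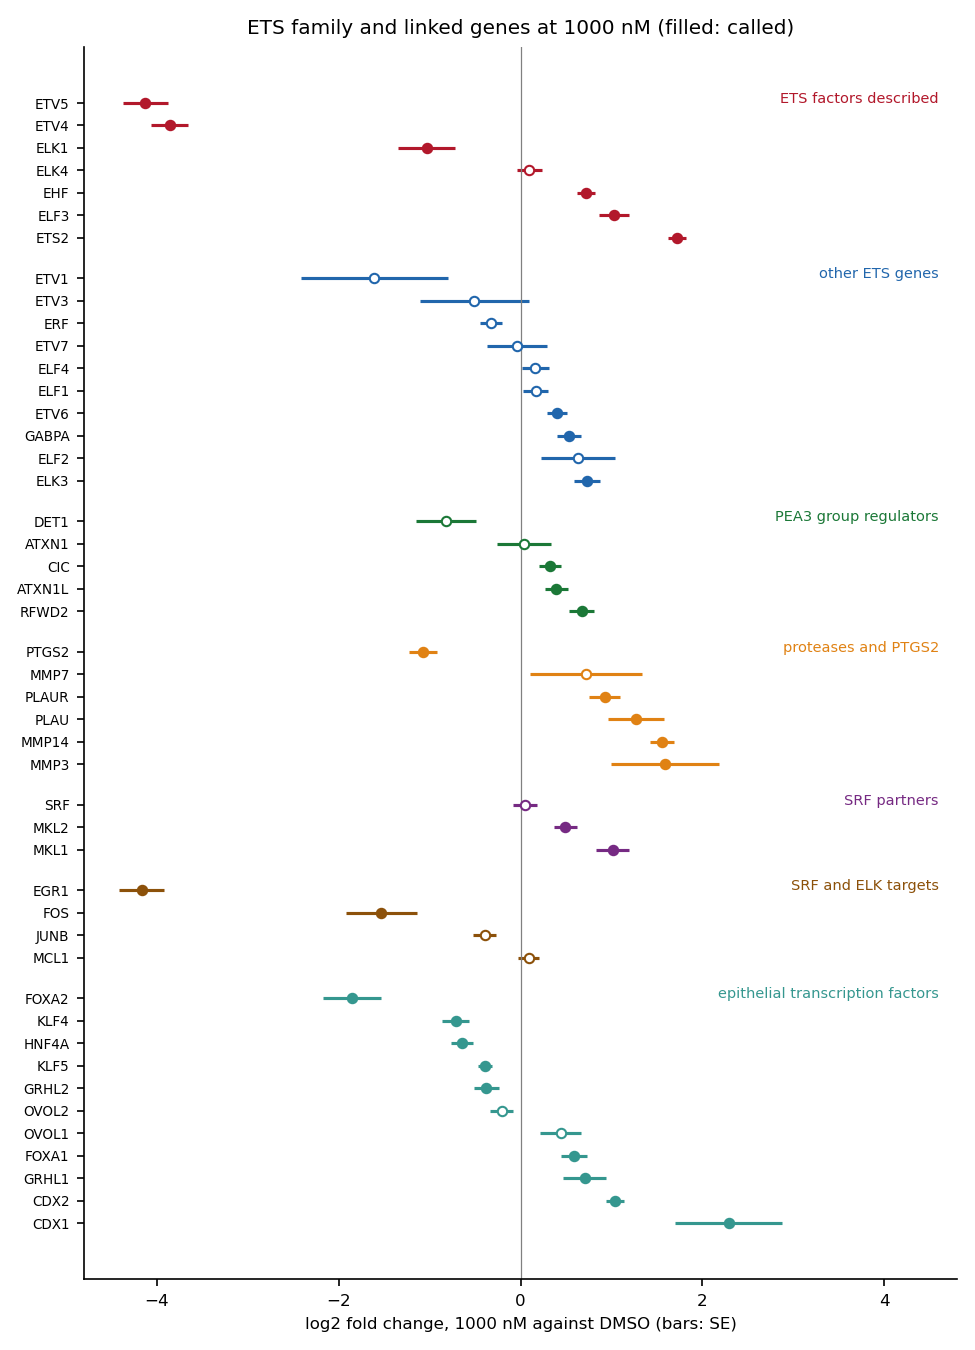
Log2 fold change at 1000 nM against DMSO (x axis) with SE bars for the tested ETS factors, other ETS genes and linked genes, grouped by list and ordered by value (y axis). Filled points are called. ETV4 and ETV5 lie at -3.86 and -4.13, next to EGR1 at -4.17, and no other ETS gene called at 1000 nM was lower apart from ELK1 at -1.03.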

How the data were processed

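RNA of LoVo cells was read as Ion AmpliSeq amplicons, starting from 10 ng of total RNA per the labels' protocols. The deposited values are whole-number counts for each gene, with no normalization by the authors. Reads were placed on hg19, per the submitters' processing notes. No source used here names the aligner or counting tool. The file of each library equalled its column of the common table in 36 of 36 cases. Of 20812 rows 10 are spike-ins at 0 counts, which leaves 20802 genes. Reads carry no molecular identifiers, so the counting floors cover counting error only.

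The model was edgeR 4.0.16 (R 4.3.3) with filterByExpr (12102 genes kept), TMM, and a robust quasi-likelihood fit of 12 groups in 36 libraries, with 24 degrees of freedom left. A dose was compared with DMSO on chip 1 and on chip 2, taking the larger p, with Benjamini-Hochberg adjustment across the tested genes and a limit of 0.05. Printed fold changes use the average of the DMSO groups, with the larger of both SEs. The labels name no chip for treated libraries, so for them chip and dose cannot be told apart. The labels speak of biological replicates but not of how cultures were separated, so a p-value here measures only how far these samples spread, which may be technical.

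Curves were least-squares fits of log2 CPM (prior count 1) to a saturating function of dose with slope 1, counted as well fitted at an SE of the log10 dose below 0.2. Ratios used a prior count of 1. Deviations of DMSO libraries of the same number on both chips correlated only weakly (0.155, 0.0956 and 0.102), and not all were over 0.1. They were averaged as 3 pairs by number, and the labels do not say whether they share a culture. The edgeR fit treated them as separate libraries. Alternatives were DESeq2 1.42.0, voom in limma 3.58.1, RLE scaling, library totals, no filter, at least 1 CPM in 3 libraries, either DMSO chip alone, summed DMSO chips, a fit of the compared libraries only, a replicate block, and leaving out libraries. Procedures were tested on simulated data. Python 3.11.15 was used with pandas 2.3.3, matplotlib 3.10.9, scipy 1.17.1 and numpy 2.4.6.

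The ETS factors, the gene lists and the 3 libraries left out together were chosen with earlier results of these data known. These 3 libraries are not the 3 that stood apart. They include replicate 2 of 0.1 nM (SD 0.351) and not replicate 3 of 1000 nM (SD 0.425). The text names all 8 factors, every called ETS gene, up to 4 called genes of each other list by adjusted p, and for each tested factor the 2 genes with the highest Pearson correlation. Genes named beside these, called or not, were chosen after their values were seen. 2 listed genes are not reported here and were left out of the lists.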

Additional observations from a re-analysis of the deposited data

How the results depend on the processing

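Over all alternatives, log2 fold changes against DMSO of the 7 tested ETS factors at 1 nM and above, and of EHF at 0.1 and 0.3 nM, kept their direction and their side of the threshold in 1021 results, gained a call in 27, lost one in 9, all of ELK1, and changed sign in 14, none of them called. ELF3 at 1 nM was 0.0446 when 3 libraries were left out together (0.1 nM replicate 2, 1 nM replicate 1, 1000 nM replicate 1) and -0.40 to 0.0368 when leaving out 1 library at a time. ELK4 stayed near 0. At 1 nM it was 0.0132, against -0.0237 with DMSO chip 2 alone, -9.32e-05 with voom, -0.0012 with DMSO summed over chips and -0.18 to 0.13 without 1 library. At 3 nM it was 0.0165, against -0.0204 with DMSO chip 2 alone and -0.0864 to 0.0812 without 1 library. At 1000 nM it was -0.0048 to 0.19 without 1 library. Fold changes of the other ETS factors below 1 nM were recomputed but are not among the results counted here. For listed genes, 467 results were the same and 35 lost a call. The number of called other ETS genes, 3, was 5 with DMSO chip 1 alone and 5 with DMSO summed over chips, and 2 to 4 without 1 library. That of PEA3 group regulators, 3, was 1 to 4 without 1 library. Between 1 and 0.1 nM the number of changed ETS factors, 2, was 1 without those 3 libraries and 1 to 3 without 1 library. Between 30 and 3 nM the number, 5, was 3 to 5 without 1 library. Between 300 and 30 nM the number, 1, was 0 with voom, 2 without the 3 libraries and 0 to 1 without 1 library. The cause of these differences was not tested beyond the smaller number of samples.

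Half-maximal doses on the CPM scale were 3.57 nM for ETV4, 2.26 nM for ETV5, 6.94 nM for ETS2 and 18.1 nM for ELF3, and that of ETV5 on the log2 scale was 7.26 to 11.1 nM when leaving out 1 replicate number. The ETV4 to ETV5 ratio difference changed sign, to 0.10 with 30, 100, 300 and 1000 nM together, 0.0227 with prior count 5 and 0.0885 with DMSO chip 1 alone. Without replicate 1 of 1000 nM the ELF3 to EHF difference was 0.32 and the ELK1 to ELK4 difference -1.35. The planned ratio of ETS1 to ETS2 was not run, since ETS1 had 2 counts in all.

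With the replicate number as a block, 6 of 7 ETS factors were called at 1000 nM and 4 at 3 nM, the same numbers as without it, and the block changed no other number of called ETS factors. Of 60 correlations between same-numbered libraries of a dose and a DMSO group, -0.074 to 0.109, 1 was over 0.1, and in 0 of 20 group pairs were all 3. The numbers were therefore not taken to pair doses with DMSO. Depth limits ETS1, at 0.633 to 1.03 CPM per library, and ELK1, whose calls rest on few counts.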
